A study of Homo sapiens with 24 samples.

Results

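Fatty acid activation and beta-oxidation was followed in OE33 cells through 33 genes, chosen by symbol from the 61860 Ensembl identifiers of each count table. The 33 genes comprised 5 for fatty acid uptake, activation and related carnitine transfer, 20 for the mitochondrial pathway and 8 for the peroxisomal pathway. OE33 cells descend from a human esophageal adenocarcinoma (EAC) near the stomach. The RNA was sequenced in 4 experiments of 6 libraries, 3 treated and 3 control, which makes 24 libraries, and every treated group was compared with its own controls. The study places a high-fat diet, the ubiquitin ligase TRIM15, the transcription factor YY2 and the mitochondrial protein FOXRED1 in a chain of regulation, and the comparisons here address what each of these did to the mRNAs of fatty acid oxidation.

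The HFD and ND groups were tumors grown under the skin of male BALB/c-nu nude mice, which lack a thymus and hence mature T cells. The mice were bought at 4 weeks of age and received for 8 weeks either normal chow (ND) or chow rich in fat (HFD) before OE33 cells were injected, and the tumors were taken 21 days later on the same diets. HFD mice were admitted by their body weight relative to the ND group, so diet and high weight cannot be told apart. In the cultured groups, OE33 cells carried a plasmid for HA-tagged TRIM15 (HA-TRIM15) or empty vector (EV) for 48 h, a short hairpin RNA against YY2 (shYY2) or a control hairpin (shControl) for 72 h, or a hairpin against FOXRED1 (shFOXRED1) or a separate set of shControl libraries for 72 h. Which of the designed hairpins was sequenced is not stated, and the labels do not say whether replicates were separate cultures, so p-values measure the spread between these libraries, which may be technical.

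Fatty acids are burned only after they are joined to coenzyme A. Long-chain acyl-CoA then crosses the mitochondrial membranes as acylcarnitine, and each turn of the beta-oxidation spiral (dehydrogenation, hydration, a second dehydrogenation and thiolysis) releases acetyl-CoA and passes electrons to the respiratory chain through FAD and NADH. Peroxisomes carry out a parallel spiral with their own enzymes for very long-chain and branched fatty acids, and hand the shortened products to mitochondria.

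Total counts per library lay between 14299807 and 45994561. The targeted genes moved with their labels. The counts of TRIM15 were 111, 130 and 181 with HA-TRIM15 and 0 in each EV library, and 14, 12 and 24 counts in HFD tumors against 1, 0 and 0 in ND tumors. YY2, which is sparsely expressed, had 11, 12 and 11 counts with shYY2 and 43, 40 and 46 with shControl. FOXRED1 was at 10.1, 11.2 and 8.83 CPM (counts scaled to a library of 1000000, within each experiment) with shFOXRED1 and 17.7, 17.2 and 17.3 with its shControl, and it was also lower with shYY2, at 19.0, 16.1 and 17.9 CPM against 33.6, 32.1 and 32.6. It was lower with HA-TRIM15 too (log2 fold change -0.24, edgeR adjusted p = 0.00509). In HFD tumors neither FOXRED1 (-0.058, edgeR adjusted p = 0.414) nor YY2 (0.27, 0.307) passed 0.05. YY2 with HA-TRIM15 did not either (0.14, edgeR adjusted p = 0.687). The paper describes the effect of TRIM15 on YY2 at the protein, which mRNA counts do not show. Of the 8 columnar epithelial markers checked (keratins 8, 18 and 19, EPCAM and others), none was at 0 throughout an experiment, and their summed level lay between 10049 and 15222 CPM. The 6 adipocyte markers summed to 1.46 CPM or less in every library, with ADIPOQ at 0 in all libraries of the HFD, HA-TRIM15 and shYY2 experiments. All markers were read as human genes, and how mouse reads were treated is not given. In the tumors these sums therefore do not measure fat or other cells of the mouse host.

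Of the 33 genes, 30 had enough counts to be tested in every experiment. The 3 others were ETFB, the beta subunit of electron-transfer flavoprotein, with 3 counts over all 24 libraries, ACOX2, a peroxisomal oxidase for branched acyl-CoA and bile acid precursors, with 90, and AMACR, a racemase of branched acyl-CoA, with 26. No library held more than 2 counts of ETFB, while ETFA, the other subunit of the same protein, had 62696 counts in all. In the GENCODE 29 annotation ETFB and AMACR overlap other genes on the same strand, which hold 5.16% and 55% of their exon bases, and how the counting treated such reads is not stated. ACAA2 shares 7.59% of its exon bases with a gene on the same strand and had 13930 counts. The part of such overlaps in the low counts was not tested.

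Per kilobase of exon, ACSL5, a long-chain acyl-CoA synthetase, had the highest level of the 33 genes in all 4 control groups, from 81.9 CPM per kb in EV libraries to 135 in the shControl libraries of the FOXRED1 experiment. ECHS1 (the enoyl-CoA hydratase of shorter chains), ACADVL (the very long-chain acyl-CoA dehydrogenase) and HADHA (the hydratase and dehydrogenase subunit of the trifunctional protein) took the next 3 places in every control group, between 29.8 and 69.6 CPM per kb. CPT1A, the outer-membrane carnitine palmitoyltransferase that admits long-chain acyl groups to mitochondria and limits the rate of the pathway, was at 23.3 to 33.7 CPM per kb. CPT2, which reverses its reaction inside the inner membrane, was at 0.866 to 1.38 CPM per kb. The length was that of all exons annotated for any transcript, 10.5 kb for CPT2 and 6.57 kb for CPT1A. Levels per kb and their order therefore depend on the annotation.

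**Figure D1:**
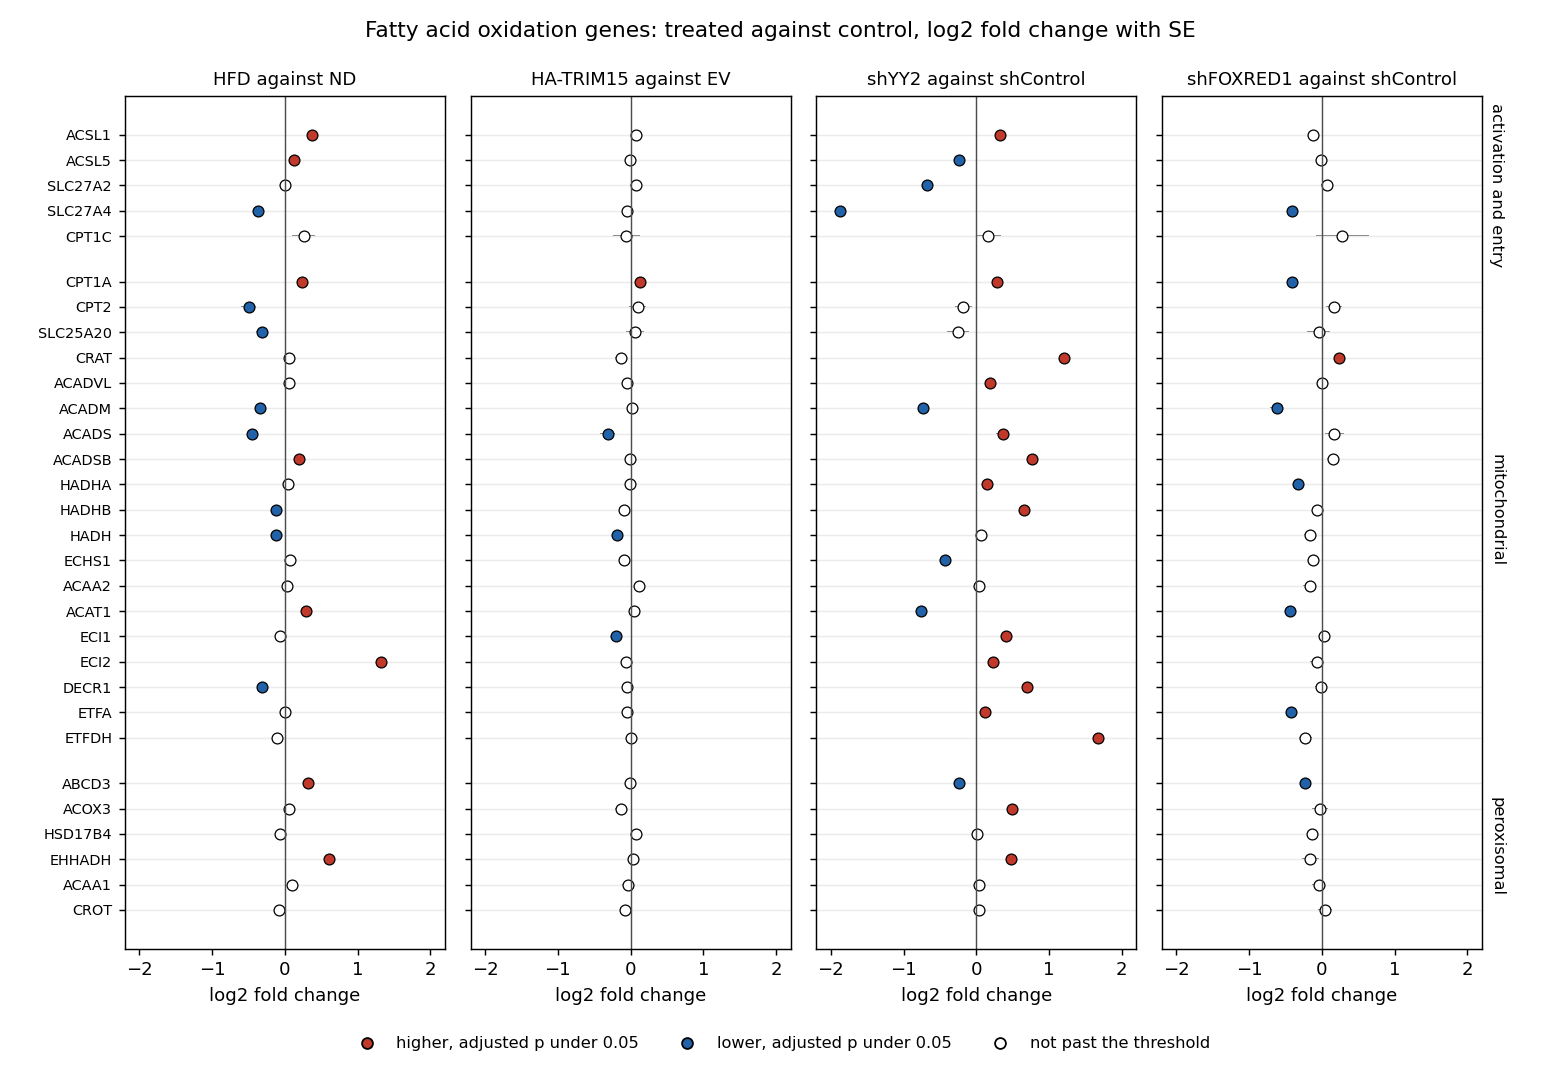
Log2 fold change of treated against control libraries (x axis) for the 30 tested genes (y axis, grouped by role) in the 4 experiments, 3 against 3 libraries each, with the standard error as a bar that is often narrower than the point. Red and blue points passed an adjusted p of 0.05 in the edgeR test, and the spread is widest with shYY2, from -1.87 for SLC27A4 to 1.67 for ETFDH.

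In HFD tumors compared to ND tumors, 8 of the 30 genes rose and 8 fell past the threshold (an adjusted p under 0.05 in the quasi-likelihood test of edgeR, with p-values adjusted by Benjamini and Hochberg's method across every gene), where 25.6% of all 17012 genes tested were higher and 23.9% lower. These shares are close to those of all genes. For 18 of the 30 genes treated and control libraries stood fully apart, without overlap, against 56.2% of all genes. The median log2 fold change was 0.035 over the 30 genes and -0.012 over all genes. Of the 19 mitochondrial genes 4 were higher and 7 lower, with the lower calls of HADHB and HADH lost under some alternatives, of the 6 peroxisomal genes 2 were higher and 0 lower, and of the 5 activation genes 2 were higher and 1 lower. The difference between these groups of genes was not tested. A level in bulk RNA cannot tell fewer cells of a kind from less RNA per cell.

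ECI2, an enoyl-CoA isomerase found in mitochondria and peroxisomes that moves double bonds of unsaturated fatty acids into place for the spiral, changed most. It was at 27.6, 24.9 and 24.3 CPM in the HFD tumors and at 10.5, 9.56 and 10.9 CPM in the ND tumors. Every HFD tumor lay far above every ND tumor, and the gene was 2.50-fold higher with HFD (log2 fold change 1.32, SE 0.074, adjusted p = 4.60e-10). Its mitochondrial relative ECI1 was not past the threshold, and the ratio of ECI2 to ECI1 was 0.462, 0.388 and 0.374 in HFD tumors and 0.171, 0.137 and 0.163 in ND tumors. A gene on the opposite strand, C6orf201, shares 27.1% of the exon bases of ECI2. Over all 24 libraries it held 193 counts and ECI2 held 9978, and its part in the difference was not tested.

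The peroxisomal genes that rose sit at the entry of the pathway and in its middle. EHHADH, the bifunctional enzyme of hydration and dehydrogenation for straight chains, was at 22.7, 20.8 and 24.1 CPM with HFD and at 15.1, 15.5 and 13.6 CPM with ND, 1.53-fold higher (log2 fold change 0.61, SE 0.072, adjusted p = 2.75e-06). ABCD3, a transporter that brings acyl-CoA into peroxisomes, was at 102, 99.5 and 101 CPM with HFD and at 84.7, 77.7 and 81.0 with ND (log2 fold change 0.31, adjusted p = 5.79e-06). Neither gene's groups overlapped. In the activation step ACSL1, a long-chain acyl-CoA synthetase, rose from 57.8, 52.9 and 57.3 CPM with ND to 73.2, 72.9 and 70.7 CPM with HFD (log2 fold change 0.37, adjusted p = 2.62e-06). ACSL5 rose by less (log2 fold change 0.12, adjusted p = 0.00904). SLC27A4, a fatty acid transport protein with acyl-CoA synthetase activity, went the other way, at 38.3, 36.4 and 38.9 CPM with HFD against 47.1, 51.8 and 48.5 with ND (log2 fold change -0.38, adjusted p = 8.22e-06).

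The carnitine shuttle was divided. CPT1A was at 258, 256 and 265 CPM in HFD tumors and at 220, 217 and 227 in ND tumors, a small rise with no overlap (log2 fold change 0.23, SE 0.034, adjusted p = 3.22e-05). CPT2 was at 11.2, 8.36 and 10.9 CPM in HFD tumors and at 12.9, 15.5 and 15.0 in ND tumors, and its fall also left the groups apart (log2 fold change -0.50, SE 0.10, adjusted p = 0.000593). SLC25A20, the carrier that exchanges acylcarnitine for carnitine between these 2 enzymes, fell by 0.31 on the log2 scale (adjusted p = 0.00609). CRAT, the carnitine acetyltransferase, did not pass the threshold. As a ratio within each library, CPT1A to CPT2 was 23.0, 30.7 and 24.3 in HFD tumors and 17.2, 14.0 and 15.1 in ND tumors.

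Within the spiral the dehydrogenases of shorter chains fell. ACADS, for short chains, was at 13.6, 13.5 and 13.0 CPM with HFD and at 17.6, 18.9 and 18.1 with ND (log2 fold change -0.45, adjusted p = 2.84e-05). ACADM, for medium chains, was at 32.7, 36.5 and 31.4 CPM with HFD and at 43.1, 41.6 and 41.9 with ND (log2 fold change -0.34, adjusted p = 6.52e-05). Both genes were lower in each HFD tumor than in any ND tumor. ACADSB, which acts on short branched chains, rose (log2 fold change 0.19, adjusted p = 0.00686). ACADVL, at 288, 289 and 278 CPM with HFD and 263, 286 and 274 with ND, overlapped between the groups and was not past the threshold (log2 fold change 0.05, adjusted p = 0.242). The same held for the p-value of HADHA, at 213, 205 and 206 CPM against 201, 199 and 205 (adjusted p = 0.302), although its groups did not overlap. HADHB, the thiolase subunit of the trifunctional protein, was at 98.4, 96.6 and 99.9 CPM against 111, 102 and 111 and was called lower (log2 fold change -0.13, adjusted p = 0.0147). HADH, the short-chain hydroxyacyl-CoA dehydrogenase, was called lower as well (-0.12, adjusted p = 0.0365).

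ACAT1, the thiolase for acetoacetyl-CoA, rose by 0.29 on the log2 scale (adjusted p = 4.09e-05), and DECR1, the dienoyl-CoA reductase for polyunsaturated chains, fell by 0.32 (adjusted p = 3.04e-05). The 14 genes not called had log2 fold changes between -0.11 and 0.26. The calls of HADHB and HADH were lost when any 1 of several tumors, of either diet, was left out. Without HFD replicate 1, HFD replicate 2, ND replicate 1 or ND replicate 3 the edgeR adjusted p of HADHB was 0.0530, 0.0631, 0.0780 and 0.0681. That of HADH was 0.0718, 0.166, 0.0920 and 0.119, with 0.0520 for HADH without HFD replicate 3. The 6 fibroblast markers summed to 23.7 to 27.0 CPM in HFD tumors and 30.5 to 33.5 in ND tumors, with none at 0 throughout and 1 of them abundant enough to be tested, and the 6 leukocyte markers to 14.7 to 14.8 against 15.7 to 17.2 CPM, with 2 tested. The 5 muscle markers summed to 15.5 to 16.1 against 14.4 to 15.2 CPM, and the 8 columnar markers to 12435 to 12595 against 11466 to 11705 CPM. Their part in these changes was not tested, and as human genes they do not measure cells of the mouse host.

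With HA-TRIM15 few of these genes moved, and none by much. Compared to EV, 1 of the 30 genes rose and 3 fell past the threshold, against 12.5% higher and 9.53% lower of all 15745 genes tested. For 6 of the 30 genes treated and control libraries stood fully apart, without overlap, against 37.7% of all genes. The median log2 fold change was -0.023 over the 30 genes and -0.0065 over all genes. All 4 called genes were mitochondrial (1 higher and 3 lower of 19), and no gene of activation (of 5) or of peroxisomes (of 6) was called.

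CPT1A was at 214, 210 and 209 CPM in the HA-TRIM15 libraries and at 191, 192 and 198 CPM in the EV libraries, and the groups did not overlap (log2 fold change 0.12, SE 0.032, adjusted p = 0.0119). ACADS was at 9.11, 7.15 and 9.04 CPM against 11.0, 10.3 and 10.4 (log2 fold change -0.32, SE 0.10, adjusted p = 0.0368). HADH was at 40.8, 38.8 and 43.5 CPM against 45.7, 47.6 and 47.2 (log2 fold change -0.19, adjusted p = 0.0116). In all 3 genes every HA-TRIM15 library lay to the same side of every EV library. ECI1 was at 51.5, 47.1 and 42.2 CPM against 52.8, 53.9 and 55.9, again without overlap (log2 fold change -0.20, adjusted p = 0.0242).

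None of the 4 calls stood when each library was left out in turn. The edgeR adjusted p of CPT1A rose to 0.0758 when EV replicate 1 was dropped and to 0.0698 for EV replicate 2. For ACADS it was 0.159 without HA-TRIM15 replicate 2 and 0.113, 0.0728 and 0.0807 without EV replicates 1, 2 and 3. For HADH it was 0.0701 without HA-TRIM15 replicate 2 and 0.0544 and 0.0510 without EV replicates 2 and 3. For ECI1 it was 0.0661 and 0.0916 without HA-TRIM15 replicates 2 and 3, and 0.0645 and 0.101 without EV replicates 2 and 3. The sign of each change stayed the same.

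The other main enzymes were at like levels with HA-TRIM15 and EV. CPT2 was at 8.48, 9.95 and 10.8 CPM against 9.67, 7.91 and 9.59, and its groups overlapped. ACADVL was at 206, 191 and 194 CPM against 202, 208 and 204, and HADHA at 196, 193 and 193 CPM against 194, 197 and 197. HADHB was at 77.6, 83.7 and 76.3 CPM against 84.4, 85.5 and 83.7 (log2 fold change -0.09, adjusted p = 0.118). The log2 fold changes of the 26 genes not called lay between -0.14 and 0.11. The 6 leukocyte markers summed to 8.72 to 10.0 CPM with HA-TRIM15 and 7.87 to 8.19 with EV, and the 6 fibroblast markers to 11.1 to 11.9 against 12.0 to 13.3 CPM, with none at 0 throughout and 2 and 1 tested. Their part was not tested.

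**Figure D2:**
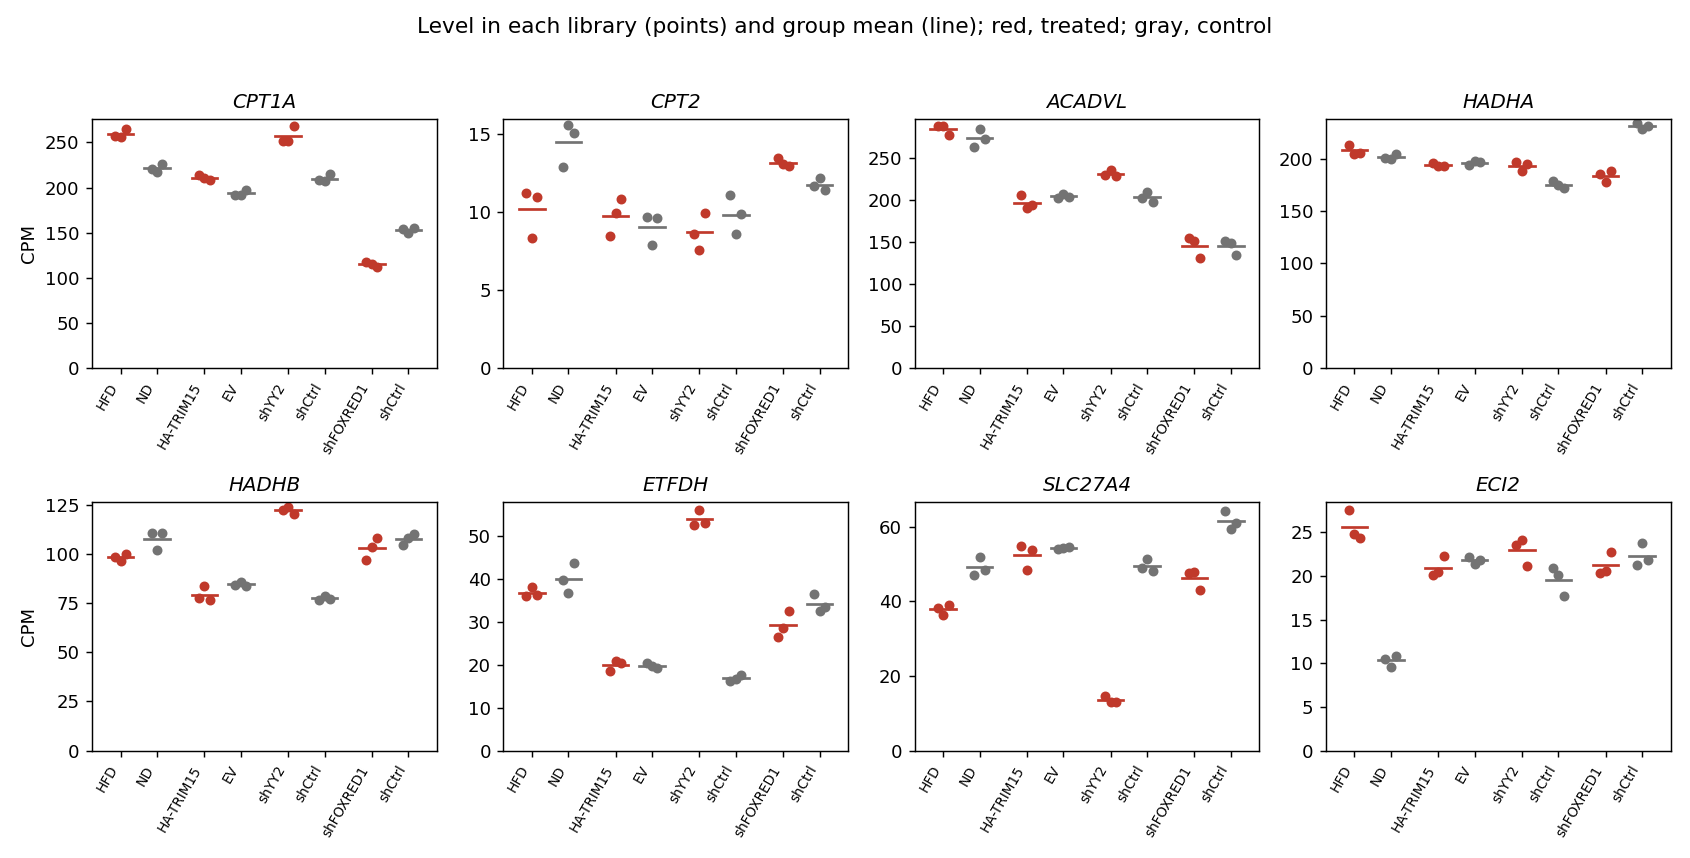
CPM of 8 genes (panels, y axis from 0) in each of the 24 libraries, with the group mean as a line, treated groups in red and their own controls in gray (shCtrl is shControl). Each experiment was scaled on its own. ETFDH at 52.5 to 55.8 CPM and SLC27A4 at 13.0 to 14.7 CPM with shYY2, and ECI2 at 9.56 to 10.9 CPM in ND tumors, stand far from their comparison groups.

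The strongest changes of the 4 experiments came with shYY2, and for the mitochondrial genes they were mostly upward. Compared to shControl, 15 of the 30 genes rose and 7 fell past the threshold, while 36.8% of all 16006 genes tested were higher and 38.1% lower. For 22 of the 30 genes treated and control libraries stood fully apart, without overlap, against 76.3% of all genes. The median log2 fold change was 0.14 over the 30 genes and -0.0081 over all genes. Of the 19 mitochondrial genes 12 were higher and 3 lower, with a median of 0.19, of the 6 peroxisomal genes 2 were higher and 1 lower, and of the 5 activation genes 1 was higher and 3 lower, with a median of -0.24.

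Electron transfer from the acyl-CoA dehydrogenases passes through electron-transfer flavoprotein to ETFDH, the inner-membrane oxidoreductase that reduces ubiquinone. ETFDH was at 52.5, 55.8 and 53.0 CPM with shYY2 and at 16.3, 16.7 and 17.6 CPM with shControl. All shYY2 libraries were about alike and far above the controls, 3.19-fold higher (log2 fold change 1.67, SE 0.053, adjusted p = 1.84e-13). ETFA rose much less (log2 fold change 0.13, adjusted p = 0.00583), and the ratio of ETFDH to ETFA within a library was 0.420, 0.440 and 0.457 with shYY2 against 0.144, 0.152 and 0.155 with shControl. The exons of PPID and C4orf46 on the opposite strand overlap 10.9% and 2.92% of the exon bases of ETFDH, and both of these genes fell with shYY2 (log2 fold changes -0.80 and -0.33, adjusted p = 9.25e-10 and 0.000100).

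CRAT, which moves acetyl groups between coenzyme A and carnitine, was at 84.4, 87.4 and 83.1 CPM with shYY2 and at 37.2, 38.2 and 34.9 CPM with shControl. It was 2.31-fold higher (log2 fold change 1.21, SE 0.043, adjusted p = 5.92e-13). CPT1A was at 252, 251 and 268 CPM against 208, 207 and 215, a smaller rise without overlap (log2 fold change 0.29, adjusted p = 6.30e-07). CPT2, at 8.58, 7.56 and 9.90 CPM against 11.1, 8.56 and 9.83, overlapped between the groups (log2 fold change -0.18, SE 0.12, adjusted p = 0.186).

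The subunits of the mitochondrial trifunctional protein, which act as one complex on long chains, both rose but by unequal amounts. HADHB was at 122, 124 and 120 CPM with shYY2 and at 76.5, 78.7 and 77.1 with shControl (log2 fold change 0.66, SE 0.032, adjusted p = 2.35e-11). HADHA was at 197, 189 and 195 CPM against 179, 175 and 172 (log2 fold change 0.14, SE 0.031, adjusted p = 0.000491). Neither gene's groups overlapped. The ratio of HADHB to HADHA was therefore 0.620, 0.658 and 0.616 with shYY2 and 0.427, 0.451 and 0.449 with shControl, a ratio chosen for display after the values were known.

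Among the other dehydrogenases, ACADSB rose 1.70-fold, from 27.5, 28.2 and 27.3 CPM with shControl to 48.6, 46.1 and 46.4 CPM with shYY2 (log2 fold change 0.76, SE 0.047, adjusted p = 5.32e-10). ACADM fell from 52.1, 48.3 and 48.9 CPM to 31.2, 29.7 and 29.2 CPM (log2 fold change -0.73, SE 0.050, adjusted p = 1.71e-09). The branched-chain and the medium-chain dehydrogenases thus moved in opposite directions, in each case with all libraries of a group on the same side. ACADVL, at 230, 236 and 230 CPM against 202, 210 and 198, and ACADS also rose (log2 fold changes 0.19 and 0.36, adjusted p = 4.14e-05 and 0.00170). RABGGTB, the neighbor of ACADM on the same strand, shares 3.28% of its exon bases and fell too (log2 fold change -0.82, adjusted p = 1.34e-12).

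The thiolase ACAT1 fell from 101, 94.8 and 100 CPM with shControl to 58.7, 57.3 and 59.3 CPM with shYY2 (log2 fold change -0.75, adjusted p = 2.83e-11), and the hydratase ECHS1 fell by 0.43 on the log2 scale (adjusted p = 2.49e-08). DECR1 rose from 27.2, 30.5 and 26.9 CPM to 47.2, 43.7 and 45.4 CPM (log2 fold change 0.69, adjusted p = 1.41e-08), and ECI1 rose by 0.41 (adjusted p = 2.79e-07). These auxiliary enzymes of unsaturated chains included ECI2, whose call is the weakest of the 22 (log2 fold change 0.23, adjusted p = 0.0118). It was not past the threshold without shYY2 replicate 2 (adjusted p = 0.0543) or without shControl replicate 3 (adjusted p = 0.0732) in the edgeR test.

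Of the 5 uptake and activation genes 3 fell, ACSL1 rose and CPT1C was not called. SLC27A4 showed the largest fall of all 30 genes, from 48.8, 51.4 and 48.01 CPM with shControl to 14.7, 13.0 and 13.0 CPM with shYY2. This was a level of 0.274 times the control (log2 fold change -1.87, SE 0.061, adjusted p = 2.18e-13). SLC27A2, a transport protein that activates very long-chain fatty acids, fell from 23.6, 24.8 and 24.5 CPM to 15.3, 15.5 and 14.9 CPM (log2 fold change -0.67, adjusted p = 7.46e-08). ACSL5 fell as well and ACSL1 rose (log2 fold changes -0.24 and 0.33, adjusted p = 1.43e-06 and 1.23e-06).

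In peroxisomes the oxidase ACOX3 and the bifunctional enzyme EHHADH rose (log2 fold changes 0.50 and 0.48, adjusted p = 9.03e-06 and 6.34e-07), and the importer ABCD3 fell (log2 fold change -0.24, adjusted p = 9.79e-06). The 8 genes not called had log2 fold changes between -0.25 and 0.17. The 6 fibroblast markers summed to 42.4 to 43.9 CPM with shYY2 and 10.5 to 11.2 with shControl, with none at 0 throughout and 1 tested and higher. The 6 adipocyte markers summed to 0.720 to 1.46 against 0.236 to 0.303 CPM, with ADIPOQ and LPL at 0 and 1 tested and higher. The 6 leukocyte markers summed to 9.90 to 10.6 against 14.3 to 15.6 CPM (1 lower of 2 tested), and the 5 muscle markers to 14.2 to 16.8 against 9.72 to 11.2 CPM (1 tested and higher), none at 0 throughout. The 8 columnar markers summed to 14705 to 15222 against 10810 to 11522 CPM. Their part in the changes was not tested.

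YY2 and its relative YY1 bind DNA with similar zinc fingers, and the core of the known YY motif is written here as AANATGGC (N is any base). Promoter windows from RefSeq (GRCh38.p14, from 250 bases before to 50 bases after a gene start) were found for 27 of the 33 genes, in 40 windows. The core, on either strand, stood in windows of 4 of the 27 genes (14.8%), against 7.97% of all 27305 genes with a window. Counted by window it stood in 4 of 40 (10%), against 6.58% of all 35116 windows. Both backgrounds include many genes that were not tested here, so they are not matched to the 27 genes in expression. Of the genes tested with shYY2 that have a window, 1304 held the core and 9770 did not. The 4 genes were HADHA, HADHB, ACADSB and ECI1, all of them higher with shYY2. HADHA and HADHB are neighbors whose windows overlap and hold the same match, so they are not separate cases. Across all tested genes with a window, 31% of the 1304 genes with the core were higher and 49.5% lower with shYY2, compared to 37.5% and 40.9% of the 9770 genes without it. A match of letters describes the sequence and does not show binding.

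The window of ECI1 is shown because it carries the core beside a gene that rose, and that of SLC27A4 because SLC27A4 fell most and has no match to the core. Capitals mark the core in the window of ECI1. In the window of SLC27A4 they mark both matches to the GC box GGGCGG, a motif in windows of 23 of the 27 genes (85.2%) against 48.3% of all genes, and in 28 of the 40 windows (70%) against 45% of all windows. These backgrounds too include genes that were not tested, and the share among tested genes was not computed for the GC box. The windows are ECI1 at chr16:2251538-2251837 (minus strand) and SLC27A4 at chr9:128340277-128340576 (plus strand), each written 5′ to 3′ on the strand of its gene.
ECI1: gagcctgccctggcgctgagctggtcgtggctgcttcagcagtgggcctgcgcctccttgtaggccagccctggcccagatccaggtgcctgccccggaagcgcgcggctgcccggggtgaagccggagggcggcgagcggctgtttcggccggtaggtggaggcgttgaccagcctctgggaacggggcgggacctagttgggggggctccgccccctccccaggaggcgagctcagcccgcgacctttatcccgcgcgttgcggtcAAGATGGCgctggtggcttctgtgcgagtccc
SLC27A4: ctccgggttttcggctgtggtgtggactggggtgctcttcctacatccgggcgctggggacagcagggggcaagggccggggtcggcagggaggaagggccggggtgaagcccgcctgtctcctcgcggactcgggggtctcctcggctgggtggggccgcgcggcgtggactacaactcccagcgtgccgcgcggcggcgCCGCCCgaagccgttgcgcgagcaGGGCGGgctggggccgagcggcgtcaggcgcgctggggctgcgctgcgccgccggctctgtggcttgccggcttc

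In ECI1 the match begins at base 19 of the gene, so it lies in transcribed sequence and not upstream of the start. It holds the letters ATG of a start codon, and a role in translation was not examined. ETFDH and CRAT, the genes with the largest rises, have no window in the table, and their promoters were not analysed here.

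**Figure D3:**
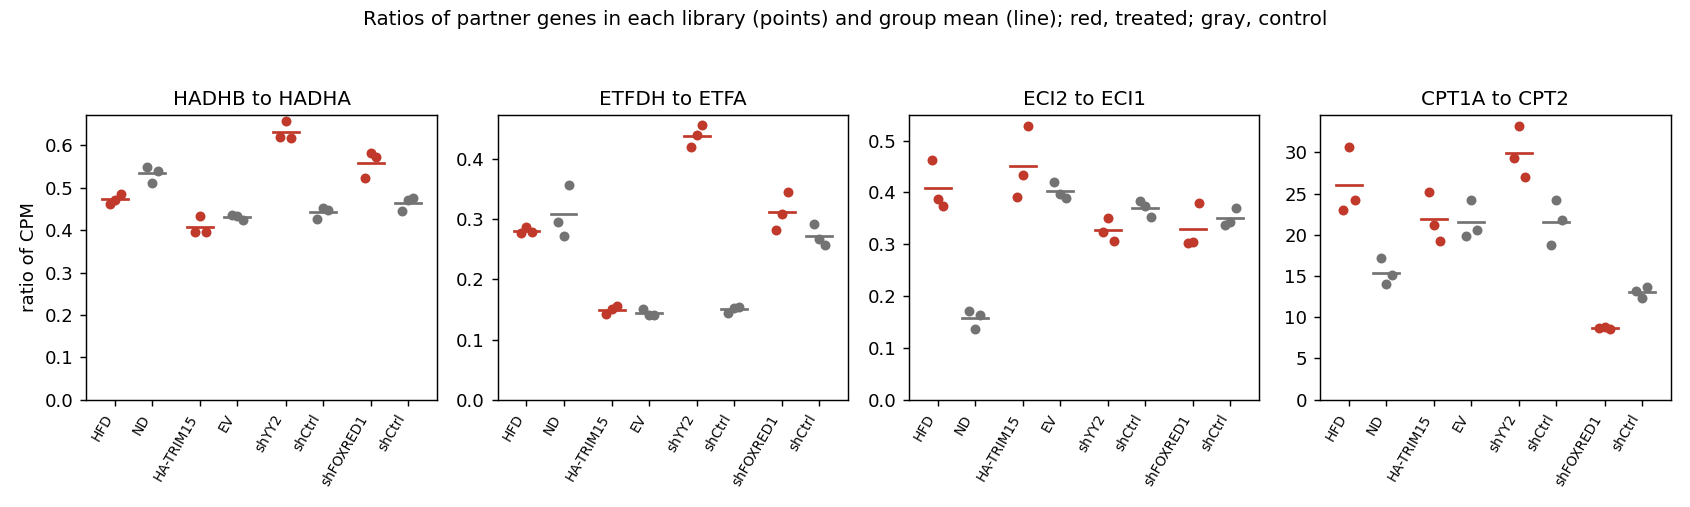
Ratio of CPM between functional partners (panels, y axis from 0) in each library, with group means as lines, treated in red and control in gray (shCtrl is shControl). HADHB to HADHA and ETFDH to ETFA stand apart with shYY2, at 0.616 to 0.658 and 0.420 to 0.457. HADHB to HADHA also has no overlap with its controls with shFOXRED1 and with HFD. ECI2 to ECI1 is lowest in ND tumors at 0.137 to 0.171. CPT1A to CPT2 is lowest with shFOXRED1 at 8.62 to 8.88, and the shControl libraries of that experiment come next at 12.4 to 13.6.

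FOXRED1 is needed for the assembly of respiratory complex I, which takes up the NADH that beta-oxidation produces. With shFOXRED1 the genes that moved were mostly lower. Compared to shControl, 1 of the 30 genes rose and 7 fell past the threshold, against 16.8% higher and 19.7% lower of all 15730 genes tested. For 15 of the 30 genes treated and control libraries stood fully apart, without overlap, against 46.7% of all genes. The median log2 fold change was -0.069 over the 30 genes and 0.012 over all genes. Of the 19 mitochondrial genes 1 was higher and 5 lower, of the 6 peroxisomal genes 1 was lower, and of the 5 activation genes 1 was lower.

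ACADM fell most, from 34.9, 40.1 and 37.2 CPM with shControl to 25.1, 25.4 and 22.1 CPM with shFOXRED1 (log2 fold change -0.62, SE 0.087, adjusted p = 2.45e-05). Its neighbor RABGGTB was not past the threshold here (log2 fold change -0.11, adjusted p = 0.177). ACAT1 fell from 51.9, 58.6 and 58.2 CPM to 42.3, 42.4 and 40.0 CPM (log2 fold change -0.43, adjusted p = 0.000151). Both mRNAs were lower in every shFOXRED1 library than in any control.

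ETFA fell from 125, 121 and 130 CPM to 93.7, 92.5 and 93.8 CPM (log2 fold change -0.42, SE 0.057, adjusted p = 1.64e-05). Its partner ETFDH was at 26.4, 28.6 and 32.4 CPM against 36.4, 32.4 and 33.4, and its adjusted p of 0.0512 in the edgeR test lay just outside the threshold (log2 fold change -0.23, SE 0.089). The overlapping genes PPID and C4orf46 fell here too (log2 fold changes -0.26 and -0.78, adjusted p = 0.0384 and 0.000185). CPT1A, at 118, 116 and 112 CPM with shFOXRED1 and 154, 150 and 156 CPM with shControl, fell with no overlap (log2 fold change -0.41, SE 0.055, adjusted p = 1.38e-05). CPT2 was at 13.5, 13.0 and 12.9 CPM against 11.7, 12.1 and 11.4, slightly higher in each library but not past the threshold (adjusted p = 0.261). The ratio of CPT1A to CPT2 was 8.75, 8.88 and 8.62 with shFOXRED1 and 13.2, 12.4 and 13.6 with shControl.

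HADHA fell from 235, 229 and 231 CPM to 185, 178 and 188 CPM (log2 fold change -0.33, SE 0.051, adjusted p = 6.19e-05). HADHB, at 97.1, 103 and 108 CPM against 105, 108 and 110, overlapped between the groups (log2 fold change -0.06, adjusted p = 0.427). The ratio of HADHB to HADHA was 0.524, 0.582 and 0.573 with shFOXRED1 and 0.446, 0.471 and 0.475 with shControl. ACADVL was at 155, 151 and 131 CPM against 152, 149 and 135 and did not differ past the threshold (log2 fold change 0.01, SE 0.068, adjusted p = 0.955).

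SLC27A4 fell from 64.1, 59.5 and 61.0 CPM to 47.7, 47.9 and 43.0 CPM (log2 fold change -0.41, SE 0.070, adjusted p = 0.000178). CRAT, the only gene called higher, was at 70.4, 67.9 and 62.9 CPM with shFOXRED1 and 57.8, 55.2 and 57.6 with shControl (log2 fold change 0.24, adjusted p = 0.00917). Without shControl replicate 2 its edgeR adjusted p was 0.0557, which leaves 0 genes called higher, and PTPA, which shares 1.97% of the exon bases of CRAT on the opposite strand, was also higher with shFOXRED1 (log2 fold change 0.32, adjusted p = 0.00856) but lower with shYY2 (-0.28, adjusted p = 1.41e-06). The peroxisomal importer ABCD3 fell by 0.23 on the log2 scale (adjusted p = 0.0119), with 0.0743 without shFOXRED1 replicate 1 and 0.0808 without shControl replicate 3. The 22 genes not called had log2 fold changes between -0.23 and 0.28.

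Over genes with a mean of at least 10 CPM, the libraries of this experiment that share a replicate number varied together, with correlations of 0.214, 0.127 and 0.414. Over all tested genes the correlations were 0.046, 0.024 and 0.118. There 2 treated libraries, not all, correlated best with the control of their own number. Whether the numbers mark pairs is not stated, and the fit with the replicate number as a block is given too. It kept the calls above and added 3 lower genes in the edgeR test, HADH (log2 fold change -0.16, adjusted p = 0.0294), ETFDH (-0.23, adjusted p = 0.0216) and HSD17B4, the peroxisomal bifunctional enzyme for branched chains (-0.14, adjusted p = 0.00987). The 6 fibroblast markers summed to 38.4 to 41.8 CPM with shFOXRED1 and 24.2 to 25.5 with shControl, with COL1A2 and DCN at 0 and 1 tested and higher, and the 5 muscle markers to 10.5 to 15.1 against 17.8 to 20.8, with MYH2 and DES at 0 and 1 tested and lower. The 6 leukocyte markers summed to 20.8 to 24.0 against 24.5 to 26.5 CPM, with none at 0 throughout and 2 tested but not called. Their part in the changes was not tested.

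Across the 4 experiments 25 of the 33 genes were called in at least 1, and 8 in none, of which 3 had too few counts. The 5 tested genes without a call were CPT1C (the carnitine palmitoyltransferase of neurons), ACAA2 and ACAA1 (the mitochondrial and peroxisomal thiolases of longer chains), HSD17B4 and CROT (the carnitine octanoyltransferase that exports chains from peroxisomes), and their log2 fold changes lay inside the ranges given for genes not called. CPT1A was the 1 gene called in all 4, higher with HFD, HA-TRIM15 and shYY2 and lower with shFOXRED1, and 0 genes were called in the same direction in all 4. SLC27A4 and ACADM were lower with HFD, shYY2 and shFOXRED1. Of the 33 genes, 10 were called higher in an experiment and lower in another. The same counts across experiments were not made over all genes. With shYY2 alone 36.8% of all tested genes were higher and 38.1% lower, so a call in at least 1 experiment is common.

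The knockdowns of YY2 and FOXRED1 were compared with each other. The difference of their effects, tested over the 12 libraries of both experiments with the edgeR test, passed an adjusted p of 0.05 for 18 of the 30 genes, 13 with the shYY2 effect above and 5 with it below, where 54.4% of all 17146 genes passed, a share not far from that of the 30 genes. The median difference over all genes was -0.026. ETFDH differed most, by 1.90 on the log2 scale (SE 0.11, adjusted p = 2.05e-12), from 1.67 with shYY2 and -0.23 with shFOXRED1. SLC27A4, which fell in both, fell further with shYY2, and the difference was -1.46 (SE 0.095, adjusted p = 2.63e-11). CRAT, which rose in both, rose further with shYY2, by a difference of 0.97 (SE 0.078, adjusted p = 7.04e-10). CPT1A, HADHA and ETFA were called higher with shYY2 and lower with shFOXRED1, and for each the difference passed the threshold (0.70, 0.48 and 0.55, adjusted p = 1.49e-09, 2.61e-07 and 2.79e-07). For ACADM the difference was -0.11 (SE 0.099, adjusted p = 0.368) and for ABCD3 -0.0037 (SE 0.079, adjusted p = 0.975), neither of which passed the threshold.

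**Figure D4:**
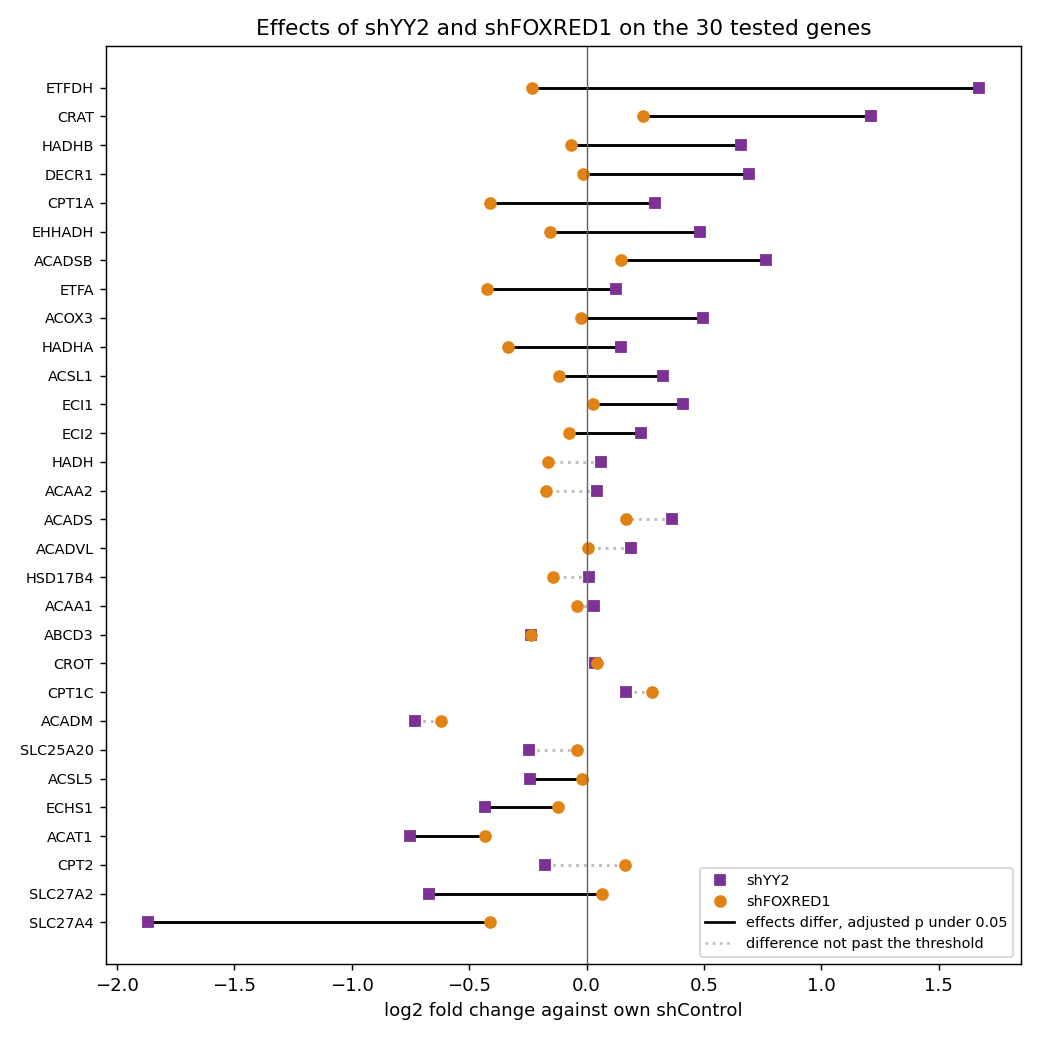
Log2 fold change of each of the 30 tested genes (y axis, ordered by the difference) with shYY2 (squares) and with shFOXRED1 (circles), each against its own 3 shControl libraries. Solid lines join the 18 genes whose effects differed past an adjusted p of 0.05, from ETFDH at the top, 1.90 apart, to SLC27A4 at the bottom, 1.46 apart in the other direction.

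The effects of HFD in tumors and of HA-TRIM15 in culture were compared in the same way. They differed for 14 of the 30 genes, 10 with the HFD effect above and 4 with it below, where 35.2% of all 17160 genes differed. The median difference over all genes in this joint fit was 0.035, so small differences above 0 are to be read beside it. The largest differences were those of ECI2 at 1.41 (SE 0.098, adjusted p = 7.74e-10), EHHADH at 0.60 (SE 0.11, adjusted p = 0.000148) and CPT2 at -0.56 (SE 0.16, adjusted p = 0.00969). CPT1A, called higher in both, had log2 fold changes of 0.23 with HFD and 0.12 with HA-TRIM15 in the separate fits. In the joint fit its difference was small but past the threshold (0.14, SE 0.044, edgeR adjusted p = 0.0197). ACADS, called lower in both, did not differ past the threshold (difference -0.10, SE 0.12, adjusted p = 0.532). The diet, the mouse host and the period of growth differ from the plasmid experiment together, so they cannot be told apart in these differences.

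Of 31 further genes of fatty acid oxidation, 27 were tested in the tumors, with 9 higher and 9 lower with HFD. ACSL4, which activates arachidonic acid, was among the higher genes, at a mean of 131 CPM with HFD and 81.0 with ND (log2 fold change 0.69, adjusted p = 4.06e-10), and ACOT2, a mitochondrial acyl-CoA thioesterase, among the lower (7.58 against 14.0 CPM, log2 fold change -0.91, adjusted p = 2.05e-07). With HA-TRIM15 2 were higher and 5 lower of 26, and with shFOXRED1 4 were higher and 4 lower of 25. With shYY2 10 were higher and 9 lower of 26. There SLC27A1, a transport protein like SLC27A4, went from a mean of 14.2 CPM to 66.6 CPM (log2 fold change 2.23, SE 0.056, adjusted p = 1.40e-14), opposite to SLC27A4. HSD17B10, the hydroxyacyl-CoA dehydrogenase of branched chains and isoleucine, fell from a mean of 34.2 to 14.2 CPM (log2 fold change -1.27, adjusted p = 1.02e-10). Over all genes tested, 25.6% were higher and 23.9% lower with HFD, and 12.5% and 9.53% with HA-TRIM15. With shYY2 the shares were 36.8% and 38.1%, and with shFOXRED1 16.8% and 19.7%. The counts for this list and for the lists below are to be read beside these shares, and no list was tested as a set.

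Of 16 genes for peroxisome assembly and catalase, 2 were higher and 4 lower with HFD, 1 and 2 with HA-TRIM15, 5 and 6 with shYY2, and 2 and 3 with shFOXRED1. With shYY2 PEX3, an anchor for membrane protein import, fell from a mean of 20.1 to 7.62 CPM (log2 fold change -1.40, adjusted p = 8.87e-10), while catalase (CAT), which breaks down the peroxide made by the oxidases, rose from 45.2 to 86.3 CPM (log2 fold change 0.93, adjusted p = 2.63e-12). Of 12 tested regulators, 3 were higher and 5 lower with HFD, 2 and 1 with HA-TRIM15, 6 and 5 with shYY2, and 5 and 1 with shFOXRED1. PPARA, a nuclear receptor that drives fatty acid oxidation genes in liver, went from a mean of 52.8 CPM to 174 CPM with shYY2 (log2 fold change 1.72, SE 0.033, adjusted p = 7.05e-16). PPARGC1A, its coactivator, fell with HFD from 16.8 to 9.11 CPM (log2 fold change -0.84, adjusted p = 3.74e-06) and rose with shYY2 and shFOXRED1 (0.44 and 0.39, adjusted p = 0.00142 and 0.00273).

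Of the 9 listed target genes of the PPAR receptors outside the pathway, 8 were tested in the tumors and 7 in each culture experiment. They gave 3 higher and 4 lower with HFD, 2 and 0 with HA-TRIM15, 3 and 2 with shYY2, and 2 and 0 with shFOXRED1. PDK4, the kinase that turns off pyruvate oxidation, rose from a mean of 41.4 to 314 CPM with shYY2 (log2 fold change 2.93, SE 0.033, adjusted p = 6.83e-18) and from 16.5 to 25.8 CPM with HA-TRIM15 (log2 fold change 0.64, adjusted p = 2.38e-05). PLIN2, which coats lipid droplets, moved in opposite directions with HFD and with shYY2 (log2 fold changes 0.53 and -0.68, adjusted p = 1.93e-09 and 2.15e-11).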

How the data were processed

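RNA from OE33 tumors and cultures was sequenced as 24 libraries. The authors deposited raw read counts per gene, 1 table for each of the 4 experiments, without normalization. No aligner, counter or annotation is given in the sources used here. The submitters' processing notes name the builds hg38 and mm10 with no role, so how reads of the mouse host were treated is not given. The paper's methods and the labels name different library kits, so it is not settled whether counting used strand, and 0 value columns were left out. Genes were named by Ensembl identifier.

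Each experiment was tested with edgeR 4.0.16 in R 4.3.3: filterByExpr (minimum count 10, minimum total count 15), TMM, glmQLFit and glmQLFTest, adjusted over all genes, threshold 0.05. CPM values use the TMM library sizes. CPM per kb divides by the joined length of all exons of a gene in GENCODE 29, over all its transcripts. Standard errors were derived from the F statistic, as the size of the log2 change over the root of F. The scripts were tested on simulated data. Alternatives were DESeq2 1.42.0, its size factors, other count filters, the replicate number as a block and leaving out each library. Replicate pairs within a group differed by a chi-square per gene of 1.45 to 8.00, so all were kept as separate samples. Libraries with the same replicate number were checked for pairing by correlating how far each lay from its group mean, over genes with a mean of at least 10 CPM. With shFOXRED1 the correlations were 0.214, 0.127 and 0.414, each over 0.1, the limit used (0.046, 0.024 and 0.118 over all tested genes), and in each other experiment at least 1 number was below the limit. An exact test on 3 against 3 libraries cannot go below a p of 0.1 and was not used. Counts spread more between replicates than sampling alone would give, and the quasi-likelihood fit estimates this added spread, which may be technical.

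The text gives values per library for CPT1A, CPT2, ACADVL, HADHA and HADHB, and in each experiment for the 4 genes in each direction with the largest change past the threshold, a mean of at least 1 CPM and no overlap. The members and lists were chosen with earlier results of these data known. Some promoter windows are not reported here.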

Additional observations from a re-analysis of the deposited data

Results flagged for a closer look

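A difference between the effects of 2 treatments, tested over the 12 libraries of both experiments with edgeR, brought these results here. Between shYY2 and shFOXRED1 18 of the 30 tested genes differed, led by ETFDH (1.90 on the log2 scale, SE 0.11, adjusted p = 2.05e-12), SLC27A4 (-1.46, SE 0.095, adjusted p = 2.63e-11) and CRAT (0.97, SE 0.078, adjusted p = 7.04e-10). Over all genes 54.4% differed, so such a difference is common between these experiments. Between HFD and HA-TRIM15 14 of the 30 genes differed, led by ECI2 (1.41, SE 0.098, adjusted p = 7.74e-10), EHHADH (0.60, SE 0.11, adjusted p = 0.000148) and CPT2 (-0.56, SE 0.16, adjusted p = 0.00969), where 35.2% of all genes differed. No group had the 4 samples that a check for a stray sample needs.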

How the results depend on the processing

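Of the calls on single genes, 14 of 16 with HFD, 0 of 4 with HA-TRIM15, 21 of 22 with shYY2 and 6 of 8 with shFOXRED1 stood under every alternative run. With HA-TRIM15, leaving out 1 library at a time gave 0 to 2 genes higher and 0 to 6 lower: 6 lower and 2 higher without HA-TRIM15 replicate 1, 0 lower without HA-TRIM15 replicate 2, EV replicate 2 or EV replicate 3, and 0 higher without EV replicate 1 or 2. With shFOXRED1 it gave 0 to 1 higher, 0 without shControl replicate 2. ACADVL with shFOXRED1 had a log2 fold change near 0 (0.01), and without 1 library it ranged from -0.0448 to 0.0737, below 0 without shFOXRED1 replicate 1 or 2 or shControl replicate 3. With the replicate block, 10 genes were lower with shFOXRED1 in place of 7, and the calls of the other 3 experiments kept their counts. DESeq2, its size factors and other count filters moved no count by over 1.5 times. In DESeq2 HADH with HFD and ACADS with HA-TRIM15 missed the threshold (adjusted p = 0.101 and 0.0719), and without a count filter HADHB and HADH with HFD did (edgeR adjusted p = 0.0549 and 0.163). The cause was not tested. ETFB, ACOX2 and AMACR had too few counts to be tested, for a reason that was not tested.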
